A study of Homo sapiens with 6 samples.

Results

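The 9 mature miRs described here are the products of a pair of paralogous clusters, miR-23a/27a/24-2 and miR-23b/27b/24-1. They are hsa-miR-23a-3p, hsa-miR-27a-3p, hsa-miR-27a-5p and hsa-miR-24-2-5p of the 23a cluster, hsa-miR-23b-3p, hsa-miR-27b-3p, hsa-miR-27b-5p and hsa-miR-24-1-5p of the 23b cluster, and hsa-miR-24-3p, which both clusters give. They were chosen by name and not by their values, though earlier results of these data were known. All 9 were found among the 2588 miR names of the count table and had reads. Small RNA was sequenced from HEK293T cells, a human embryonic kidney line, in 3 RPL24 KD libraries and 3 NC libraries. RPL24 KD cells received 50 nM of siPOOLs, mixtures of many siRNAs, against RPL24, a protein of the large ribosomal subunit, and NC cells received 50 nM of non-targeting siPOOLs. All cells were harvested 72 h after the siPOOLs. The treatment label also names a miR-608 plasmid given to both groups 48 h after the siPOOLs and 24 h before harvest. The authors describe the sequenced knockdown as a separate experiment and report that miR-608 was not detected in it. No label says whether the sequenced cells received the plasmid. No label says whether the libraries of a group came from separate cultures, so the tests below measure the spread between these libraries, which may be technical. Every comparison asks whether depletion of RPL24 went along with another level of a miR, or with another balance between the products of these loci.

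Each cluster is transcribed as a single primary transcript, cut by Drosha into hairpins and then by Dicer into a 5p and a 3p arm, of which 1 is usually kept as the guide that represses mRNAs through its seed. In these clusters the 3p arms are the usual guides. The clusters are known from endothelial cells, muscle, fat and T cells. miR-27 represses PPARG, a regulator of fat cell formation, and miR-24 represses genes of cell cycle progression.

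All 9 miRs matched an entry in the RefSeq annotation of GRCh38.p14, and their sequences are shown because the paralogs differ by so little. The 3p arms are given first, 5′ to 3′, with the seed (bases 2 to 8) in capitals.
hsa-miR-23a-3p: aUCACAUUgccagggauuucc
hsa-miR-23b-3p: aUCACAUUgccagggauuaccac
hsa-miR-27a-3p: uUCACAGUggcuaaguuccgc
hsa-miR-27b-3p: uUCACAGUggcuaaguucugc
hsa-miR-24-3p: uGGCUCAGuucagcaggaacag
Within each pair the seed is the same. Counted from base 1 of the miR of the 23a cluster, miR-23a-3p and miR-23b-3p differ by U19A and by 2 additional bases at the 3′ end of miR-23b-3p, and miR-27a-3p and miR-27b-3p differ by C19U. A read that ends before base 19 therefore fits both paralogs. How such reads were counted is not stated, so the split of reads between paralogs is uncertain, and the sum of a pair is free of it only if each shared read was counted once. In the same table miR-365a-3p and miR-365b-3p had the same count in every library, while miR-199a-3p and miR-199b-3p did not. The mature miR-24-3p is identical in both clusters, and its reads cannot be assigned to a locus.

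The 5p arms, usually the passengers, differ more between the clusters and so mark the locus of origin.
hsa-miR-27a-5p: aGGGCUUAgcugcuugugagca
hsa-miR-27b-5p: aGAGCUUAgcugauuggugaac
hsa-miR-24-2-5p: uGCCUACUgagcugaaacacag
hsa-miR-24-1-5p: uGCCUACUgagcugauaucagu
miR-27a-5p and miR-27b-5p differ at 8 of 22 bases, and G3A lies in the seed. miR-24-2-5p and miR-24-1-5p differ at 6 of 22 bases, all outside the seed.

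The loci differ in spacing and in what surrounds them. In the RefSeq annotation of GRCh38.p14 the 23b cluster occupies 95085208 to 95086088 of chromosome 9 (plus strand), a span of 881 bp with MIR23B, MIR27B and MIR24-1 in that order. In GENCODE 29, MIR23B and MIR27B are intronic in 7 transcripts of the protein-coding gene C9orf3, and MIR24-1 is intronic in 6 and exonic in 1. The 23a cluster occupies 13836287 to 13836659 of chromosome 19 (minus strand), a span of 373 bp, and all 3 of its hairpins are exonic in 1 transcript of the noncoding gene AC020916.1. The hairpins of the miRs with the most and the fewest reads in the group are shown with both arms in capitals.
MIR27B: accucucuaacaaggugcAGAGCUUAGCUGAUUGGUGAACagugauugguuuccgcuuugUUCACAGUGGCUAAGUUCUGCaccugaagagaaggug
MIR24-1: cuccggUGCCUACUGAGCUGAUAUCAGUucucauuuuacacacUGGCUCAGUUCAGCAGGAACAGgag

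The libraries held from 398721 to 611745 counts, and the 9 miRs together took from 1.08% to 1.31% of them. Levels are given in CPM, a miR's counts divided by the TMM-scaled library total and multiplied by 1000000, and 3 counts, the least that is treated as detected, correspond to between 4.99 and 7.52 CPM, a limit that covers counting error only. The NC libraries differed more from each other (chi-square per degree of freedom 9.72 to 17.4) than the RPL24 KD libraries did (2.18 to 2.50), all beyond counting noise. Mature miRs are 21 to 23 nt long here, so no length scaling was applied. Of 10 miRs fixed as markers of other cell types, 8 had fewer than 10 counts in every library, and the blood marker miR-223-3p had 0 in all. The exceptions were miR-143-3p, with 5 to 50 counts, and the muscle miR-1-3p, at 241 to 266 CPM in RPL24 KD and 309 to 355 CPM in NC. Over the 10 markers the summed level was 271 to 306 CPM in RPL24 KD and 375 to 525 CPM in NC. Without miR-1-3p it was 29.3 to 45.1 CPM in RPL24 KD and 24.5 to 177 CPM in NC, so the groups overlapped in this sum. Singly, miR-133a-3p (3.66 to 6.66 CPM in RPL24 KD, 12.2 to 17.5 in NC) also lay lower in RPL24 KD. So did miR-124-3p (0 to 1.66 CPM in RPL24 KD, 1.75 to 20.0 in NC), both at few counts. The other markers overlapped between the groups. The part of these markers in the results below was not tested. The RPL24 mRNA is not measured by small RNA libraries, so the knockdown could not be checked in them.

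By reads, the group was dominated by a single guide. How evenly miRs of different sequence were captured in the libraries was not measured, so comparisons between miRs are of reads. miR-27b-3p averaged 8995 CPM over the 6 libraries, ranked number 24 of the 1205 miRs with a read, and held between 76.6% and 80.1% of the counts of the 9 miRs in every library. miR-24-3p followed at 1236 CPM (number 71), miR-27a-3p at 512 CPM (number 106), miR-23b-3p at 413 CPM (number 117) and miR-23a-3p at 163 CPM (number 177). The 5p arms came last, with miR-27b-5p at 71.9 CPM, miR-27a-5p at 51.8 CPM, miR-24-2-5p at 14.8 CPM and miR-24-1-5p at 5.13 CPM.

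Most neighbors in this order were apart in every library. In 6 of 6 libraries the counts fell from miR-27b-3p to miR-24-3p, from miR-24-3p to miR-27a-3p, from miR-27a-3p to miR-23b-3p, from miR-23b-3p to miR-23a-3p and from miR-23a-3p to miR-27b-5p. The step from miR-27a-3p to miR-23b-3p was small, a ratio of means of 1.24, and the ranges of the 2 over the libraries overlapped, since the lowest miR-27a-3p value was 465 CPM and the highest miR-23b-3p value 475 CPM. miR-27b-5p and miR-27a-5p were not ordered beyond their spread, with more miR-27b-5p in 4 libraries, a tie in 1 and the opposite order in the remaining library.

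**Figure D1:**
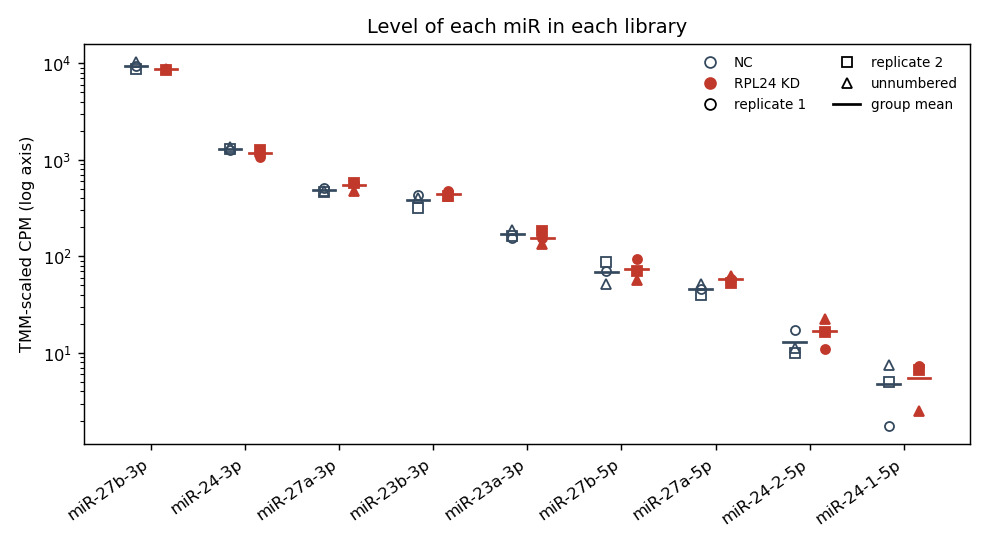
Level of the 9 miRs in each library, in TMM-scaled CPM on a log axis, ordered by mean level. Open symbols are NC and filled symbols RPL24 KD, circles are replicate 1, squares replicate 2 and triangles the unnumbered library of each group, and bars are group means. The order from miR-27b-3p at 8995 CPM to miR-24-1-5p at 5.13 CPM spans far more than the distance between the groups within any miR.

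None of the miRs that could be tested was called differentially expressed (DE) after RPL24 KD. Of the 9, 7 passed the filter on low counts and were tested in the fit across all miRs, and 0 of these 7 were DE at an adjusted p under 0.05 in edgeR's quasi-likelihood test, adjusted by the Benjamini-Hochberg method. Over all 360 miRs tested, 18 were DE (5.00%), 12 of them higher (3.33%) and 6 lower (1.67%). At an unadjusted p under 0.05, 0 of the 7 passed, against 85 of 360 (23.6%). limma called 0 of the 7 and DESeq2 0 of the 5 to which it gave an adjusted p (none was given for miR-27a-5p and miR-27b-5p), and 0 of the 7 had an unadjusted p under 0.05 in either. Of the 7 log2 fold changes 4 were positive, as were 47.2% over all tested miRs, and their median was 0.15 against -0.01.

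The 5 tested miRs with the most reads are the 3p guides. miR-27b-3p had 8776 CPM in RPL24 KD replicate 1, 8428 in replicate 2 and 8660 in the unnumbered library, and 9243, 8632 and 10232 CPM in NC replicate 1, replicate 2 and the unnumbered library. The groups overlapped, with the highest value in the unnumbered NC library. Its log2 fold change was -0.12 (standard error 0.067, 95% interval -0.26 to 0.02, adjusted p = 0.321, edgeR), and it was -0.06 without the unnumbered NC library. The spread within NC, a coefficient of variation of 8.62%, was larger than within RPL24 KD, 2.06%, and than counting error alone, 1.48%.

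miR-24-3p, which sums the output of both clusters, was the only guide whose groups did not overlap. It had 1059, 1248 and 1210 CPM in RPL24 KD replicates 1 and 2 and the unnumbered library, and 1266, 1277 and 1354 CPM in the NC libraries in the same order. All 3 RPL24 KD libraries lay below all 3 NC libraries, by a margin of 1248 to 1266 CPM between the nearest 2. The log2 fold change was -0.15 (standard error 0.085, 95% interval -0.33 to 0.03, adjusted p = 0.331, edgeR), so the difference did not pass the test, and it was -0.07 without RPL24 KD replicate 1. Groups without overlap and with RPL24 KD below were found for 12.8% of all tested miRs.

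miR-27a-3p, which carries the same seed as miR-27b-3p, had 582, 572 and 471 CPM in RPL24 KD replicate 1, replicate 2 and the unnumbered library, and 506, 465 and 480 CPM in NC. The 2 numbered RPL24 KD libraries lay above every NC library, and the unnumbered one lay among them. The log2 fold change was 0.17 (standard error 0.104, 95% interval -0.05 to 0.39, adjusted p = 0.374, edgeR).

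The miR-23 guides had estimates of opposite sign, neither past the test. miR-23b-3p had 475, 423 and 426 CPM in RPL24 KD replicate 1, replicate 2 and the unnumbered library, and 436, 317 and 404 CPM in NC. The groups overlapped, with the lowest value in NC replicate 2. Its log2 fold change was 0.18 (standard error 0.121, 95% interval -0.08 to 0.44, adjusted p = 0.409, edgeR), and it was 0.10 without NC replicate 2 and 0.28 without NC replicate 1. miR-23a-3p had 154, 181 and 135 CPM in RPL24 KD and 154, 162 and 190 CPM in NC, in the same order of libraries. These ranges overlapped widely. The log2 fold change was -0.09 (95% interval -0.41 to 0.24, adjusted p = 0.777, edgeR), and it was 0.01 without the unnumbered NC library.

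The 5p arms had fewer reads and wider intervals. miR-27a-5p, with 16 to 32 counts in a library, had 58.5, 53.2 and 62.6 CPM in RPL24 KD replicate 1, replicate 2 and the unnumbered library, and 45.5, 40.0 and 51.2 CPM in NC. Here all 3 RPL24 KD libraries lay above all 3 NC libraries, which was so for 14.7% of all tested miRs. Its log2 fold change of 0.32 had the largest size among the 7 tested members, with a standard error of 0.215 and a 95% interval of -0.14 to 0.78 (adjusted p = 0.409, edgeR). miR-27b-5p had 95.1, 69.9 and 57.6 CPM in RPL24 KD and 70.0, 87.5 and 51.2 CPM in NC. The groups overlapped throughout. Its log2 fold change was 0.15 (95% interval -0.36 to 0.65, adjusted p = 0.757, edgeR), and it was -0.07 without RPL24 KD replicate 1 and -0.03 without the unnumbered NC library.

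Counting both directions, the groups did not overlap for 2 of the 7 tested members, miR-24-3p and miR-27a-5p, and for 27.5% of all tested miRs. The 95% intervals bound what these libraries leave room for. For miR-27b-3p the interval, written as a fold of RPL24 KD over NC, ran from 0.832 to 1.02, for miR-24-3p from 0.795 to 1.02, and for miR-27a-3p from 0.964 to 1.31. For miR-27a-5p it ran from 0.908 to 1.72, the widest of these 4.

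**Figure D2:**
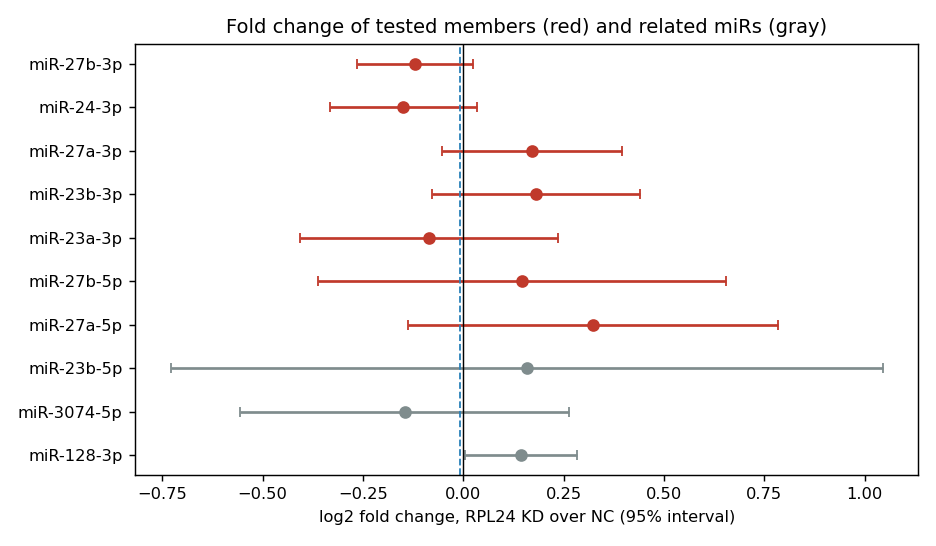
Log2 fold change of RPL24 KD over NC (x axis) with 95% intervals from the edgeR fit, for the 7 tested members in red and the 3 tested related miRs in gray. The dashed line is the median of all 360 tested miRs, -0.01, and the intervals of all 7 members include 0.

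The remaining miRs, both 5p arms of miR-24, did not pass the filter and were not tested. miR-24-2-5p had 6, 10 and 9 counts in RPL24 KD replicate 1, replicate 2 and the unnumbered library, and 10, 4 and 6 counts in NC. miR-24-1-5p had 4, 4 and 1 counts in RPL24 KD and 1, 2 and 4 counts in NC, at or near the detection floor. Summed over the libraries of a group and scaled to depth, RPL24 KD over NC was 1.21 for miR-24-2-5p (25 against 20 counts, exact 95% interval 0.646 to 2.30) and 1.25 for miR-24-1-5p (9 against 7 counts, exact 95% interval 0.413 to 3.94), intervals that cover counting error only. Both intervals include 1, so no difference between the groups was seen, and they leave room for a large one at this depth.

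**Figure D3:**
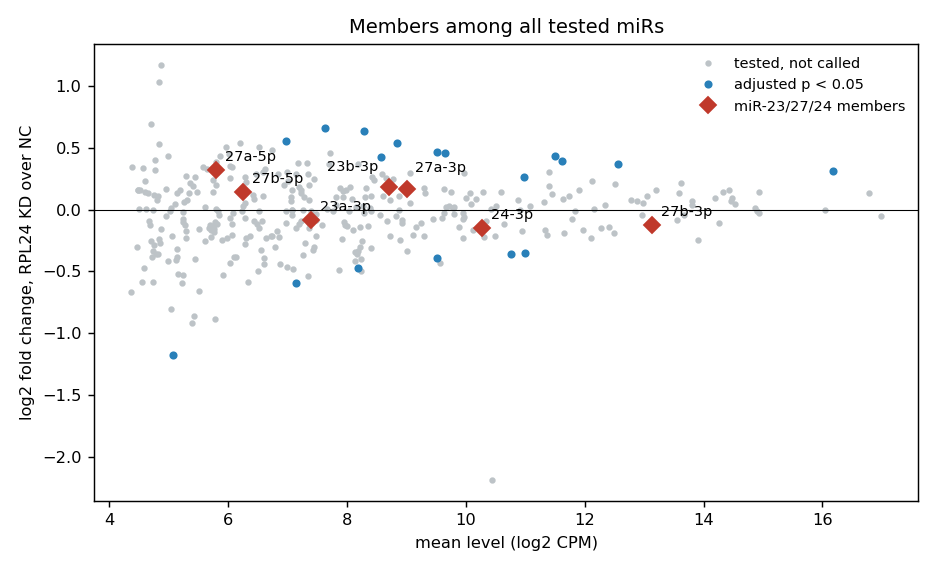
Log2 fold change of RPL24 KD over NC (y axis) against mean level (x axis, log2 CPM) for the 360 tested miRs, with the 18 DE miRs in blue and the 7 tested members as red diamonds. The members lie between -0.15 and 0.32, within the cloud of miRs that were not called at their level.

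The guides that share a seed were also summed, with any read counted under both names included under both. The miR-23 guides summed to 598 ± 34.3 CPM in RPL24 KD (SD, n = 3) against 554 ± 64.4 CPM in NC (SD, n = 3), a difference of 0.11 on the log2 scale that was 0.04 without NC replicate 2. The miR-27 guides summed to 9163 ± 181 CPM in RPL24 KD (SD, n = 3) against 9852 ± 812 CPM in NC (SD, n = 3), a difference of -0.10 that was -0.04 without the unnumbered NC library. The miR-24 family is miR-24-3p alone. In an exact two-sided permutation test p was 0.4 for miR-23, 0.3 for miR-27 and 0.1 for miR-24, with adjusted values over the 3 families of 0.4, 0.4 and 0.3. With 3 libraries against 3 the smallest p such a test can give is 0.1, so it cannot pass a threshold of 0.05.

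The paralogs had unequal numbers of reads, by different margins for each guide. Over the 6 libraries together miR-27b-3p made up 94.6% of the miR-27 guides (27455 of 29033 counts, exact binomial 95% interval 94.3% to 94.8%), and from 93.6% to 95.5% in single libraries. miR-23b-3p made up 71.8% of the miR-23 guides (1273 of 1773 counts, exact binomial 95% interval 69.6% to 73.9%), and from 66.1% to 75.9% in single libraries. The 23b cluster thus gave more reads than the 23a cluster for both guides in 6 of 6 libraries. The 5p arms of miR-24 had the opposite order, since miR-24-2-5p of the 23a cluster had more counts than miR-24-1-5p in 6 of 6 libraries. miR-24-1-5p made up 26.2% of their 61 counts (exact binomial 95% interval 15.8% to 39.1%). For the 5p arms of miR-27 the share of miR-27b-5p was 58.1% (219 of 377 counts, exact binomial 95% interval 52.9% to 63.1%), far below the share of miR-27b-3p among the 3p arms. The intervals of these shares cover counting error only. The range over single libraries was wider for each pair, but single libraries hold fewer counts. That range was 47.9% to 68.6% for miR-27b-5p and 9.09% to 40% for miR-24-1-5p. For both 5p pairs and the miR-23 guides the exact interval of every library included the share over all 6 libraries. For the miR-27 guides the intervals of some libraries did not. These orders were noticed in the data and are given as a description, with no test.

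The arms had reads in different proportions in the paralogous hairpins. For each 100 reads of miR-27a-3p there were between 8.60 and 13.3 reads of miR-27a-5p in a library, and for each 100 reads of miR-27b-3p at most 1.08 reads of miR-27b-5p. The 2 ranges did not overlap, but both carry the uncertain split of reads between miR-27a-3p and miR-27b-3p. The 5p arms of miR-24 together gave between 1.17 and 2.07 reads for each 100 of miR-24-3p.

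Of 8 ratios between paralogs or arms that were compared between the groups, 2 did not overlap. The levels of single miRs did not overlap for 27.5% of all tested miRs, and the 8 ratios share members. The 23a cluster, summed over its 4 miRs other than miR-24-3p, gave 8.60, 9.23 and 7.56 reads for each 100 of the 23b cluster. These are RPL24 KD replicate 1, replicate 2 and the unnumbered library, and NC gave 7.41, 7.49 and 6.84 in the same order. All 3 RPL24 KD libraries lay above all 3 NC libraries, although the unnumbered RPL24 KD library exceeded NC replicate 2 only from 7.49 to 7.56. The mean log2 ratio was -3.57 ± 0.15 in RPL24 KD (SD, n = 3) against -3.79 ± 0.07 in NC (SD, n = 3), a difference of 0.22 (exact two-sided permutation p = 0.1, the smallest possible, adjusted p = 0.4 over the 8 ratios). The 23b sum was mostly miR-27b-3p, with 27455 of 28963 counts over the 6 libraries. The ratio therefore mainly follows the miR-27 guides and carries the uncertain split of reads between paralogs. The miR-23 guides alone had a difference of the opposite sign, -0.31, so a shift of the whole cluster is not shown.

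The 5p arms of miR-24 gave 1.73, 1.87 and 2.07 reads for each 100 of miR-24-3p in RPL24 KD replicate 1, replicate 2 and the unnumbered library, and 1.52, 1.17 and 1.40 in NC. RPL24 KD lay above NC in every pair of libraries. The difference of the mean log2 ratio was 0.45 (exact two-sided permutation p = 0.1, adjusted p = 0.4 over the 8 ratios), and the 5p arms behind it held only 6 to 14 counts in a library.

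The other 6 ratios overlapped between the groups. miR-27a-3p gave 6.63, 6.79 and 5.44 reads for each 100 of miR-27b-3p in RPL24 KD replicate 1, replicate 2 and the unnumbered library, and 5.47, 5.39 and 4.69 in NC, an overlap set by the unnumbered RPL24 KD library and NC replicate 1. The log2 difference was 0.27 (exact two-sided permutation p = 0.2, adjusted p = 0.4). miR-23a-3p gave 32.3, 42.9 and 31.8 reads for each 100 of miR-23b-3p in RPL24 KD and 35.3, 51.2 and 46.9 in NC, a log2 difference of -0.31 (exact two-sided permutation p = 0.2, adjusted p = 0.4). The estimates for the paralogs of miR-27 and of miR-23 had opposite signs, neither past the test. The arm ratios of miR-27a and miR-27b and the paralog ratios of the 5p arms had log2 differences between 0.08 and 0.25 and exact permutation p-values between 0.4 and 1.

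**Figure D4:**
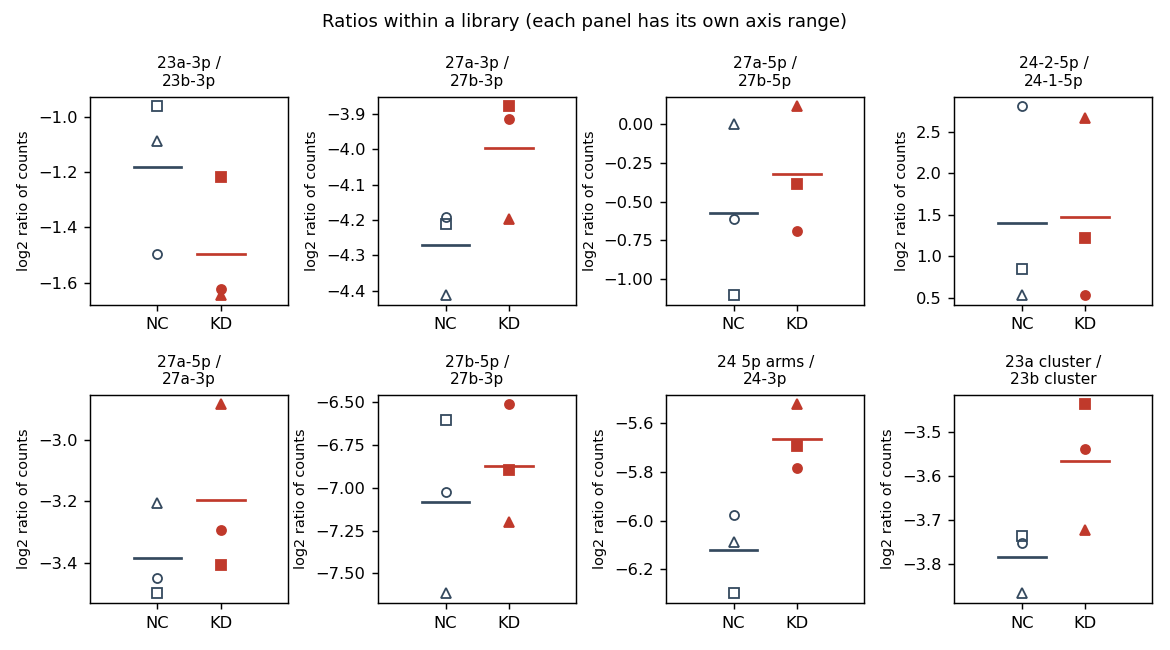
The 8 log2 ratios of counts (y axes, each panel with its own range) in the 3 NC libraries (open) and the 3 RPL24 KD libraries (filled), where circles are replicate 1, squares replicate 2, triangles the unnumbered libraries and bars group means. The groups are apart for the 5p arms of miR-24 over miR-24-3p and for the 23a cluster over the 23b cluster, and overlap in the other 6 panels.

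The proportion between guides of the same cluster also varied across libraries. miR-23b-3p gave 5.42, 5.01 and 4.92 reads for each 100 of its cluster neighbor miR-27b-3p in RPL24 KD replicate 1, replicate 2 and the unnumbered library, and 4.71, 3.68 and 3.95 in NC. RPL24 KD lay above NC in every pair of libraries. In the 23a cluster miR-23a-3p gave 26.4, 31.7 and 28.7 reads for each 100 of miR-27a-3p in RPL24 KD and 30.4, 34.9 and 39.5 in NC, the opposite direction with an overlap. Both ratios were chosen after the values of the guides were seen and were not tested.

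Of 6 miRs related to the group, 4 had reads, 3 were tested and 0 were DE in either direction by edgeR, beside 5.00% of all tested miRs. miR-23a-5p, the passenger of miR-23a, and miR-23c, which has the miR-23 seed at a locus on chromosome X, had 0 counts in all 6 libraries. The passenger of the paralogous hairpin, miR-23b-5p, had 5 to 13 counts in a library and a log2 fold change of 0.16 (95% interval -0.73 to 1.05, adjusted p = 0.867, edgeR). The hairpin MIR3074 lies on the opposite strand and covers all 68 bp of MIR24-1. Its 5p arm miR-3074-5p (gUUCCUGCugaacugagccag, seed in capitals) had 30 to 54 counts in a library and a log2 fold change of -0.15 (95% interval -0.56 to 0.26, adjusted p = 0.711, edgeR). It thus had more counts than the 2 5p arms of miR-24 together in every library. miR-3074-3p had 1 to 9 counts and was not tested.

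miR-128-3p (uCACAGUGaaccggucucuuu, seed in capitals), a guide abundant in brain, shares a run of 8 bases, UCACAGUG, with miR-27b-3p, placed 1 base earlier. It averaged 20490 CPM, above miR-27b-3p at 8995 CPM. It had 21135, 22020 and 21359 CPM in RPL24 KD replicate 1, replicate 2 and the unnumbered library, and 20683, 20331 and 17411 CPM in NC. All RPL24 KD libraries lay above the NC libraries, which was so for 14.7% of all tested miRs. The lowest NC library was the unnumbered one, while for miR-27b-3p that library was the highest. The log2 fold change of miR-128-3p was 0.14 (standard error 0.065, 95% interval 0.004 to 0.28, adjusted p = 0.203, edgeR), which did not pass the threshold, and it was 0.07 without the unnumbered NC library.

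Among the tested miRs outside the group, the 3 whose pattern over the 6 libraries was nearest to that of miR-27b-3p were miR-191-5p, miR-708-5p and miR-140-3p. Nearness was measured as the root mean square difference of log2 CPM centered on each miR's mean. It was 0.021 for miR-191-5p, 0.047 for miR-708-5p and 0.054 for miR-140-3p, against a median of 0.204 over the tested miRs that are not members. Of the cluster members miR-24-3p was nearest at 0.101, while miR-23b-3p, cut from the same cluster as miR-27b-3p, was at 0.196 and miR-27b-5p, cut from the same hairpin, at 0.358. These distances include counting error, which is larger for miRs with few reads.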

How the data were processed

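The authors checked reads with FastQC (0.11.9 in the submitters' processing notes), used Flexbar for trimming and miRExpress for alignment to miRBase microRNAs, and deposited raw read counts of mature miRs in each library without scaling. No column of counts was left out. One library in either group has a column number absent from the labels and is called unnumbered. The groups were compared with edgeR 4.0.16 quasi-likelihood tests (R 4.3.3, non-legacy fit, no covariates) after TMM normalization and filterByExpr (minimum count 10), adjusted over all 360 tested miRs, with standard errors implied by F. DESeq2 1.42.0 and limma 3.58.1 (voom) were alternatives. Ratios used counts plus 0.5 and an exact permutation test over libraries. The edgeR fit was tested on simulated data. All 9 members were named, with 6 related miRs and the 3 miRs nearest in pattern to the member with the highest mean CPM. The members and lists were chosen with earlier results of these data known. Sequences and coordinates are from RefSeq (GRCh38.p14), host genes from GENCODE 29 (GRCh38), and all 6 hairpins had the same coordinates in both.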

Additional observations from a re-analysis of the deposited data

How the results depend on the processing

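The number of DE members was 0 in each of the 16 alternatives, with at most 2 members at an unadjusted p under 0.05, while the number of DE miRs over all tested was 18 in the fit as reported, 28 with total counts, 31 without a filter, 34 with the robust fit, 52 under the replicate block and between 4 and 29 when 1 library was left out. The fits with legacy edgeR and with the numbered libraries alone (34 DE miRs) were added after seeing the data. A mean of at least 100 counts left out miR-23a-3p, miR-27a-5p and miR-27b-5p and gave 27 DE miRs. Of 107 log2 fold changes of members under alternatives, 102 kept their direction and side of the threshold and 5 reversed. With the replicate block miR-27b-3p was -0.062. Reversals were those of miR-23a-3p, 0.069 with the replicate block, 0.084 in the fit of numbered libraries and from -0.20 to 0.014 without 1 library (0.014 without the unnumbered NC library), and of miR-27b-5p, from -0.069 to 0.34 without 1 library, negative without RPL24 KD replicate 1 (-0.069) and without the unnumbered NC library (-0.035). Among the other miRs, miR-23b-5p was -0.30 with the replicate block, -0.25 in the fit of numbered libraries and from -0.16 to 0.44 without 1 library, miR-3074-5p from -0.23 to 0.015 without 1 library, and miR-708-5p 0.013 with the replicate block, 0.0055 in the fit of numbered libraries and from -0.089 to 0.026 without 1 library. miR-140-3p, at -0.22 in the fit as reported, was called lower at a mean of at least 100 counts (-0.26, adjusted p = 0.0499, edgeR). Without 1 library the log2 ratio difference of miR-27a-5p over miR-27b-5p ranged from -0.014 (without NC replicate 2) to 0.54, of miR-27b-5p over miR-27b-3p from -0.055 (without the unnumbered NC library) to 0.45, and of miR-24-2-5p over miR-24-1-5p from -0.52 (without the unnumbered RPL24 KD library) to 0.78, negative also without NC replicate 2 (-0.20) and without the unnumbered NC library (-0.36). That of the 23a cluster over the 23b cluster stayed between 0.16 and 0.30, and that of the miR-24 5p arms over miR-24-3p between 0.36 and 0.52. The causes were not tested. The block used the 4 numbered libraries. On these same libraries the fit gave 52 DE miRs with the block and 34 without it. Same-numbered libraries among them did not deviate together (correlation -0.03 over 360 miRs). The unnumbered libraries, which share a column number, were not part of this correlation. It rests on few libraries and cannot exclude a pairing. The main fit did not take the numbers as pairs. Depth limits the 5p arms most.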
